A study of Lactuca sativa with 18 samples.

Results

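The 100 genes described here were abundant in every library, and were chosen from the 46150 GeneIDs counted in midribs of romaine lettuce (Lactuca sativa). They need not be the 100 most abundant genes of any single library. For each GeneID the count was scaled to a common library total (CPM) in the 12 libraries of day 0 and day 3. The lowest of these 12 values was its score, and the 100 GeneIDs with the highest scores were kept. The level in these same libraries chose the members, so a high level is a description and not a finding, and a high lowest value works against large differences between libraries. The midrib is the stiff central vein of the leaf, and the study sets cultivars of unlike enzymatic browning against each other. In enzymatic browning, cut tissue darkens because phenolic compounds in it are oxidised.

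Clemente (CL), labelled as medium in browning and selected from the progeny of PC and TG, was sampled on day 3 and on day 0 of cold storage. Tall Guzmaine (TG), the parent labelled high in browning, and Parris Island Cos (PC), the parent labelled low, were sampled on the same days. These 6 groups had 2 libraries each. The tissue of all groups had the same history. Harvested heads were force-air cooled, trucked under refrigeration, held cold for another day, stripped of wrapper leaves and green blade, and the ribs were cut by hand with a knife into short pieces. Day 0 is freshly cut tissue from cold-stored heads. Every sample was of cut ribs, so what cutting did and what storage did cannot be told apart, and storage change here means only the difference between day 3 and day 0. Whether the 2 libraries of a group were made from different heads is not in the labels. The p-values therefore measure only the spread between these libraries, which may be technical. Day 2 columns, 6 in all, were not used, because all 100 members lay in each of them within 1.5 counts of a line computed from days 0 and 3 of that cultivar and replicate.

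Transcripts that are plentiful in every sample of a plant tissue usually come from genes that most cells use all the time, for protein synthesis and turnover, the cytoskeleton, water transport and primary metabolism. Because a library holds a fixed number of reads, such genes set much of the scale on which all other genes are read, and genes of this kind are often taken as references in expression work. All 100 members had an entry in the name table, which lists 97 of them as protein coding, 2 as rRNA and 1 as lncRNA, but gives no product names, so no function is given for a member here and the midrib label was not checked against marker genes. A single member carried a further name, GS(1) for LOC111883376, a name in common use for cytosolic glutamine synthetase, the enzyme that joins ammonium to glutamate. Transcript lengths were not used here, so a level ranks a gene by reads and not by molecules, and levels of different genes are not compared per length. In these bulk samples, fewer cells of a type and less RNA per cell cannot be told apart.

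The 12 libraries held 35603537 to 59153901 counts. Between 68.4% and 74.6% of values of at least 100 were even, as happens if a read pair counts as 2, so there are fewer independent fragments than counts. The lowest count of any member in any library was 14962, for which counting alone gives a relative error of 0.818%, or 1.16% if every fragment was counted as a pair. Counting error is therefore small for the members' values, and the spread between replicates is given below. Scaling factors (TMM, which adjusts library sizes to the bulk of the genes) were 0.780 and 0.794 in the CL libraries of day 0, 1.12 and 1.17 in the PC libraries of day 0, and 0.977 to 1.10 in the others. Levels below are CPM on TMM-adjusted library sizes unless they are said to be on library totals.

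On library totals, the gene with the highest score was LOC111899860, which had at least 2733 and at most 5231 CPM in any library. The next was LOC111918870, one of the pair with rRNA biotype, with 2471 to 8627 CPM. LOC111890922 followed with 2163 to 4197 CPM, LOC111916590 with 1916 to 4746 CPM and LOC111916361 with 1848 to 10038 CPM. The last of these has a wide range, and its storage change is given below. LOC111900815 ranged from 1841 to 4137 CPM, LOC111888771 from 1669 to 2622 CPM and LOC111894705 from 1650.0 to 3564 CPM. LOC111905281 ranged from 1607 to 5020.1 CPM and LOC111904524 from 1604 to 2109 CPM. The list ends without a gap. Just inside it, LOC111886981, LOC111882542 and LOC111901375 had lowest levels of 421, 420.2 and 416 CPM, and just outside it LOC111893977, LOC111915884 and LOC111889025 had 414, 413 and 413 CPM. Which genes sit at the edge depends most on PC day 0 replicate 2, where 25 members had their lowest level. Left out of the score, that library keeps 90 of the 100 members, any other single library keeps 98 to 100, and a score on TMM-adjusted sizes keeps 93.

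Together the members took 15.2% ± 0.264 of the counts in CL on day 3 and 16.1% ± 0.412 on day 0, 15.0% ± 0.0896 in TG on day 3 and 16.5% ± 0.978 on day 0, and 15.2% ± 0.565 in PC on day 3 and 17.1% ± 0.362 on day 0 (SD, n = 2 each). In every library the share lay between 14.8% and 17.4%, and each day 3 library lay below each day 0 library. The next 100 genes by the same score took 5.31% to 6.06%. Most of the members' share came from protein-coding genes, since the 2 members of rRNA biotype took 0.383% to 1.28% of a library, with the highest share in PC day 3 replicate 2. The rule chose on these levels, so no test is given, and a share of library totals does not show whether the members fell or other genes rose. On TMM-adjusted sizes the order of the groups was another one, with 20.5% in CL on day 0 and 15.0% in PC on day 0.

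**Figure D1:**
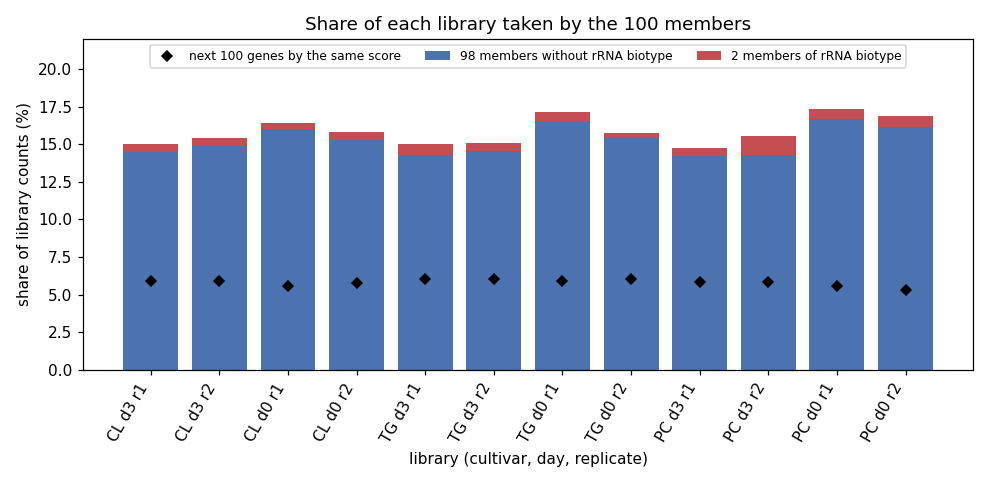
Share of the counts of each library (percent, vertical axis) taken by the 100 members in the 12 libraries, with the 98 members without rRNA biotype in blue and the 2 of rRNA biotype in red, and the share of the next 100 genes as black diamonds. The bars reach 14.8% to 17.4% and the diamonds lie at 5.31% to 6.06%.

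Abundance in every library did not mean an even level. On library totals, the highest level of a member exceeded its lowest by a median ratio of 2.63, against 2.13 for the next 100 genes and 4.70 for the 17463 tested genes with a count in every library. The ratio was under 2 for 29 members and 4 or more for 21, and it reached 10 or more for 5. On TMM-adjusted sizes the median ratio was 2.76 for the members, 2.48 for the next 100 genes and 4.37 for the 17463 genes. It was then under 2 for 30 members and 4 or more for 27. On library totals the evenest members were LOC111878009 with a ratio of 1.30, LOC111904524 with 1.32, LOC111880971 with 1.34, LOC111887278 with 1.36 and LOC111882042 with 1.38. On TMM-adjusted sizes LOC111904524 was less even, with 1577 to 2579 CPM, and so was LOC111882042, with 752 to 1270 CPM. At the other end on library totals stood LOC111903698 with 33.7, LOC111885899 with 16.2, LOC111877125 with 13.0, LOC111896763 with 10.7 and LOC111909425 with 10.2. LOC111878009, the evenest, had 556 and 555 CPM in CL on day 3 and 598 and 611 CPM on day 0, 534 and 480.5 CPM in TG on day 3 and 462 and 545 CPM on day 0, and 547 and 537 CPM in PC on day 3 and 487 and 462 CPM on day 0. Its storage changes were -0.12 ± 0.16 (SE) on the log2 scale in CL, 0.01 ± 0.16 (SE) in TG and 0.19 ± 0.16 (SE) in PC. It passed the threshold in none of the 8 comparisons below, its lowest adjusted p being 0.208 in CL against PC (edgeR quasi-likelihood test, Benjamini-Hochberg), which does not show that its level was equal in all groups.

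**Figure D2:**
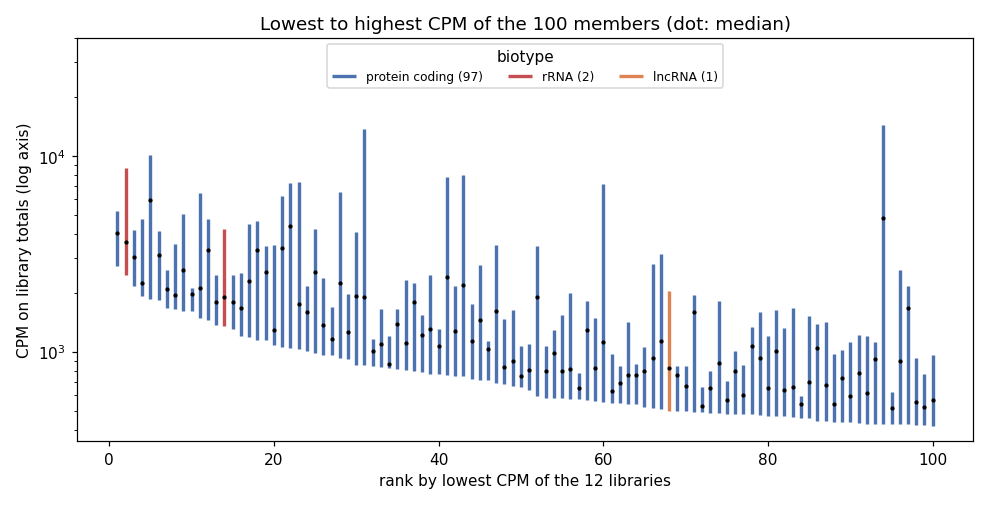
Lowest to highest CPM on library totals (vertical line, log axis) and median (dot) of each of the 100 members over the 12 libraries, by rank of the lowest value and coloured by biotype. The lower ends fall from 2733 to 416 CPM, and the tallest lines belong to LOC111903698, with 14426 CPM at most, and to LOC111885899, with 13768 CPM at most.

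The same gene was not first in all libraries, although the first gene was a member in each of the 12. LOC111903698 led in the 4 libraries of TG and CL on day 0, LOC111885899 in both PC libraries of day 0 and LOC111916361 in 5 of the 6 day 3 libraries, while the rRNA-biotype gene LOC111918870 led in PC day 3 replicate 2. In a library's own 100 most abundant genes, 45 to 66 were members, and 23 members were there in all 12 libraries. Another 164 genes entered the first 100 of at least 1 library without being members. Of these, 5 did so in 10 libraries each and none in more. LOC111921786, chosen after its values were seen, had the highest level of the 5. It reached 8844 CPM on library totals, but had 60.8 CPM in PC day 0 replicate 2.

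Replicates of a group differed by far more than counting error. The median member differed between the 2 replicates 1.06-fold in CL on day 3 and 1.11-fold on day 0, 1.15-fold in TG on day 3 and 1.17-fold on day 0, and 1.09-fold in PC on day 3 and 1.17-fold on day 0. Counting alone would give medians of 1.005-fold to 1.007-fold. The largest difference between replicates was 2.91-fold, for LOC111903698 in PC on day 0, where replicate 1 had 1070.1 and replicate 2 had 368 CPM. LOC111918870 differed 2.36-fold between the PC replicates of day 3. In CL on day 3 all 100 members agreed within 1.5-fold. The fewest did so in PC on day 0, with 88, close to the 89 in TG on day 0.

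The first set of comparisons asks how the levels differed between day 3 and day 0 within each cultivar, with every gene tested in one edgeR model over the 12 libraries and p-values adjusted over all 21757 genes tested. In CL, 36 of the 100 members passed an adjusted p of 0.05, 7 of them higher and 29 lower on day 3, where 32.0% of all genes passed, 16.5% higher and 15.5% lower. The median log2 fold change was -0.26 over the members and 0.04 over the 21757 genes tested, and the median absolute value was 0.48 and 0.77. The split in CL rests on the scaling: without a scaling factor the median of all genes moved to 0.37, and 18 members passed as higher and 19 as lower. In TG, 31 members passed, 5 higher and 26 lower, where 27.4% of all genes passed, 13.6% higher and 13.8% lower. Here the median log2 fold change was -0.24 over the members and 0.01 over the 21757 genes tested, and the median absolute value was 0.42 and 0.70. Without a scaling factor the TG split was 9 higher and 22 lower, with a median of 0.10 over all genes. In PC, 43 members passed, 19 higher and 24 lower, where 39.6% of all genes passed, 21.5% higher and 18.1% lower. For PC the median log2 fold change was 0.06 over the members and 0.03 over the 21757 genes tested, and the median absolute value was 0.44 and 0.87. In at least 1 cultivar 62 members passed, where 58.1% of all genes did. The total shares of members called were thus near those of all genes. In CL and TG the members passed as lower more often, and as higher less often, than all genes did. In CL that split rests on the scaling, as given above. The median absolute change of the members was smaller in each cultivar, but the rule asks for a high lowest level and so works against large changes.

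**Figure D3:**
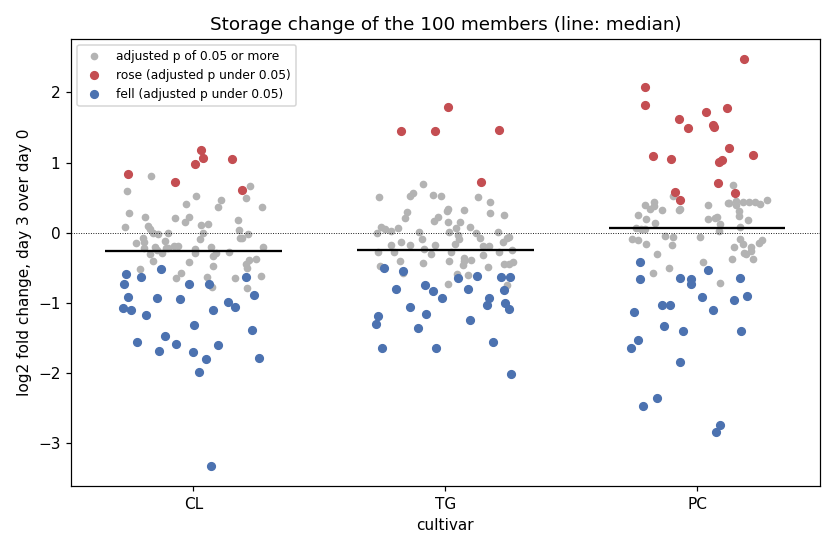
Log2 fold change of day 3 over day 0 (vertical axis) of the 100 members in CL, TG and PC, with members that passed an adjusted p of 0.05 in red (higher on day 3) or blue (lower on day 3), the others in grey and the median as a line. Red and blue points number 7 and 29 in CL, 5 and 26 in TG, and 19 and 24 in PC, and the medians are -0.26, -0.24 and 0.06.

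Many of these calls were lost with fewer libraries in the fit. Leaving a library out also takes away data, so a lost call does not show that it rested on that library. Of the calls, 15 of 36 in CL, 11 of 31 in TG and 25 of 43 in PC held whichever of the libraries compared was left out. With a library left out its group keeps a single one, which the fit assumes to vary like the others. With 1 library left out the count in CL was 17 (CL day 3 replicate 1 left out) or 19 (CL day 3 replicate 2), and in TG it was 20 (TG day 0 replicate 1) or 13 (TG day 3 replicate 1). In a fit of only the groups compared, 15 members passed in TG. The next 100 genes by score, which are nearly as abundant, had 53 calls in CL, 36 in TG and 46 in PC.

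In all 3 cultivars 3 members rose, where 5.73% of all genes did, and among the next 100 genes by score 4 did. LOC111916361, the first gene of most day 3 libraries, had 10089 and 9397 CPM on day 3 against 4963 and 5891 CPM on day 0 in CL. In TG it had 9748 and 7741 CPM on day 3 against 2853 and 3527 CPM on day 0, and in PC 6681 and 7281 CPM against 1653 and 1670.4 CPM. Day 3 and day 0 libraries did not overlap in any cultivar. The log2 fold changes were 0.84 ± 0.22 in CL (SE, adjusted p = 0.0138), 1.46 ± 0.22 in TG (SE, adjusted p = 0.00126) and 2.07 ± 0.22 in PC (SE, adjusted p = 0.00011) by the edgeR quasi-likelihood test. The CL call was lost without CL day 0 replicate 1, CL day 3 replicate 1 or CL day 3 replicate 2 (adjusted p up to 0.0971). LOC111896942 had 7369 and 6663 CPM on day 3 against 3027 and 4091 CPM on day 0 in CL, and 6465 and 5134 CPM on day 3 against 1828 and 1534 CPM on day 0 in TG. In PC it had 5476 and 6071 CPM on day 3 against 1184 and 897 CPM on day 0. Its rise was 1.97-fold in CL (adjusted p = 0.0117), 3.45-fold in TG (adjusted p = 0.000852) and 5.55-fold in PC (adjusted p = 8.39e-05, edgeR quasi-likelihood test), the last being the largest rise of any member in PC. In CL its call was lost without CL day 0 replicate 1 or CL day 3 replicate 1 (adjusted p up to 0.093). LOC111877678 had 2078 and 2199 CPM on day 3 against 919.7 and 1143 CPM on day 0 in CL, and 2679 and 2503 CPM on day 3 against 935 and 954 CPM on day 0 in TG. Its PC libraries had 2247 and 1788 CPM on day 3 against 645 and 745 CPM on day 0. It rose 2.07-fold in CL, 2.74-fold in TG and 2.90-fold in PC, with adjusted p of 0.00285, 0.000834 and 0.000313 (edgeR quasi-likelihood test), and kept each call without any one library. Without CL day 0 replicate 1 or CL day 3 replicate 1, LOC111877678 alone of the 3 rose in all cultivars.

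In all 3 cultivars 13 members fell, where 5.24% of all genes and 11 of the next 100 genes did. LOC111877125 had the largest fall of any member in CL, with 806 and 983 CPM on day 3 against 9241 and 8551 CPM on day 0 in CL. It had 656 and 722 CPM on day 3 against 3215 and 2327 CPM on day 0 in TG, and 510.0 and 648 CPM on day 3 against 1978 and 1088 CPM on day 0 in PC. All 6 day 3 libraries lay below all 6 day 0 libraries, and the day 3 levels of the cultivars were much closer to each other than the day 0 levels. The log2 fold changes were -3.31 ± 0.32 in CL (SE, adjusted p = 7.64e-05), -2.01 ± 0.30 in TG (SE, adjusted p = 0.00129) and -1.40 ± 0.30 in PC (SE, adjusted p = 0.00413) by the edgeR quasi-likelihood test. LOC111885899, the first gene of PC midribs on day 0, had 1505 and 1706 CPM on day 3 against 12313 and 10589 CPM on day 0 in PC, 1958 and 1886 CPM on day 3 against 4835 and 5165 CPM on day 0 in CL and 1051 and 797 CPM on day 3 against 1659.6 and 2448 CPM on day 0 in TG. Day 3 lay below day 0 in each cultivar without overlap, and its fall in PC, 7.13-fold with adjusted p = 4.34e-05 (edgeR quasi-likelihood test), was the largest of any member there. It fell 2.60-fold in CL (adjusted p = 0.00194) and 2.22-fold in TG (adjusted p = 0.00656).

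LOC111896763 had 760.2 and 970.4 CPM on day 3 against 3432 and 3414 CPM on day 0 in CL, and 1126 and 1603 CPM on day 3 against 5341 and 3173 CPM on day 0 in TG. In PC it had 1251 and 799.9 CPM on day 3 against 7159 and 6509 CPM on day 0. Its fold changes were among the 3 largest falls in each cultivar, -1.98 ± 0.32 in CL (SE, adjusted p = 0.00119), -1.64 ± 0.32 in TG (SE, adjusted p = 0.00435) and -2.74 ± 0.33 in PC (SE, adjusted p = 0.0002) on the log2 scale (edgeR quasi-likelihood test). The TG call was lost without TG day 3 replicate 1 (adjusted p up to 0.0507). LOC111881471 had 859 and 1057 CPM on day 3 against 3363 and 2811 CPM on day 0 in CL, and 1177 and 1598 CPM on day 3 against 2691 and 2139 CPM on day 0 in TG. In PC it had 553 and 540.3 CPM on day 3 against 3091 and 2934 CPM on day 0. It fell 3.22-fold in CL (adjusted p = 0.000444), 1.74-fold in TG (adjusted p = 0.0239) and 5.51-fold in PC (adjusted p = 5.5e-05, edgeR quasi-likelihood test), and its TG call was lost without TG day 0 replicate 1 or TG day 3 replicate 1 (adjusted p up to 0.193) and in a fit of those groups alone (0.093). The other 9 members that fell in all cultivars were LOC111905281, LOC111878875, LOC111906885, LOC111895182, LOC111910396, LOC111884330, LOC111884522, LOC111914293 and LOC111880281. LOC111905281, the only one of the 10 highest scores in this group, had 1895 and 1903 CPM on day 3 against 3591 and 3666 CPM on day 0 in CL, and 2355 and 2154 CPM on day 3 against 4431 and 4169 CPM on day 0 in TG. Its PC libraries had 1481 and 1478 CPM on day 3 against 4489.6 and 4040.0 CPM on day 0. Its calls held without any one library, with log2 fold changes of -0.93 in CL, -0.93 in TG and -1.53 in PC. The size of the group depended on the fit. It was smaller without TG day 3 replicate 1, PC day 3 replicate 1 or CL day 3 replicate 1. In fits of only the groups compared, 6 of the 13 remained.

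Another 6 members fell in CL and TG and did not pass in PC, where 3.54% of all genes and 16 of the next 100 genes did so. The largest of these changes was in LOC111902198, with 659 and 584 CPM on day 3 against 2030.1 and 2294 CPM on day 0 in CL and 506 and 453 CPM on day 3 against 1469 and 1529.9 CPM on day 0 in TG. Its log2 fold changes were -1.80 ± 0.19 in CL (SE, adjusted p = 0.000121) and -1.65 ± 0.19 in TG (SE, adjusted p = 0.000346), against -0.51 ± 0.18 in PC (SE, adjusted p = 0.0514), where it had 634 and 719.8 CPM on day 3 and 865 and 1056 CPM on day 0. Its direction was thus the same in PC, with a smaller value that did not pass the edgeR test. A single member, LOC111912961, rose in CL and TG alone, where 2.49% of all genes and 2 of the next 100 genes did. It had 3219 and 2909.7 CPM on day 3 against 1359.7 and 1342 CPM on day 0 in CL. In TG it had 4028 and 3396 CPM on day 3 against 1401 and 1278 CPM on day 0. In PC it had 4466 and 5214 CPM on day 3 and 3931 and 5323 CPM on day 0, so that all 4 PC libraries stood above both CL libraries of day 3. Its log2 fold changes were 1.18 ± 0.22 in CL (SE, adjusted p = 0.00235), 1.47 ± 0.22 in TG (SE, adjusted p = 0.00116) and 0.07 ± 0.21 in PC (SE, adjusted p = 0.843) by the edgeR quasi-likelihood test. In PC alone, 11 members rose and 8 fell, where 8.99% and 7.48% of all genes did. In CL alone, 1 rose and 6 fell, where 4.82% and 3.599% of all genes did. In TG alone, 0 rose and 5 fell, where 1.81% and 2.18% of all genes did. Passing in 1 cultivar and not in another does not show a difference between the cultivars.

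Smaller changes made up the rest of the calls. The 8 members without values so far among those that fell everywhere had log2 fold changes of -1.78 to -0.62 in CL, -1.36 to -0.50 in TG and -1.84 to -0.53 in PC, and LOC111906885 in CL and LOC111895182 in PC fell the most of them. Of the 6 members that passed in CL and TG, LOC111887933, LOC111898761, LOC111906685, LOC111884980 and LOC111881712 stood beside LOC111902198, and the 6 had -1.80 to -0.72 in CL and -1.65 to -0.55 in TG. The 11 members that rose in PC alone were LOC111890969, LOC111918310, LOC111910852, LOC111908773, LOC111880690, LOC111891105, LOC111883376, LOC111889554, LOC111909588, LOC111912341 and LOC111898029, with log2 fold changes of 0.56 to 1.73. The same 11 had -0.30 to 0.67 in CL and -0.41 to 0.56 in TG, and none of these values passed. The 8 members that fell in PC alone were LOC111884674, LOC111921260, LOC111900249, LOC111880334, LOC111890968, LOC111899827, LOC111910737 and LOC111892512, with -1.64 to -0.42 in PC, -0.51 to 0.81 in CL and -0.32 to 0.34 in TG. Those that fell in CL alone were LOC111906577, LOC111912755, LOC111884300, LOC111897439, LOC111913793 and LOC111919698, with -1.16 to -0.58, and those that fell in TG alone were LOC111894705, LOC111907029, LOC111891693, LOC111915340 and LOC111898218, with -1.05 to -0.63. LOC111919935 rose in CL alone, at 0.72 ± 0.22 (SE, adjusted p = 0.0295) by the edgeR quasi-likelihood test.

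Opposite storage changes passed in different cultivars for 4 members, where 3.17% of all genes had such calls. LOC111903698, the most uneven of the 100, had 4831 and 4935 CPM on day 3 against 16665 and 12984 CPM on day 0 in CL and 3966 and 4869 CPM on day 3 against 14578 and 11393 CPM on day 0 in TG. In PC it had 2598 and 2461 CPM on day 3 against 1070.1 and 368 CPM on day 0. It fell in the cultivars where it was the first gene on day 0 and rose in PC, where both day 0 libraries were the lowest of the 12 and also far apart. The log2 fold changes were -1.60 ± 0.41 in CL (SE, adjusted p = 0.0139), -1.56 ± 0.41 in TG (SE, adjusted p = 0.0187) and 1.82 ± 0.41 in PC (SE, adjusted p = 0.00597) by the edgeR quasi-likelihood test. Without PC day 0 replicate 1 the PC value was 2.78. The CL call was lost without CL day 0 replicate 1, CL day 3 replicate 1 or CL day 3 replicate 2 (adjusted p up to 0.087), and the TG call was lost without TG day 0 replicate 1, TG day 3 replicate 1 or TG day 3 replicate 2 (adjusted p up to 0.129).

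LOC111909425 had 3571 and 3499 CPM on day 3 against 9722 and 9796 CPM on day 0 in CL and 2011 and 2384 CPM on day 3 against 1406 and 654 CPM on day 0 in PC. It fell by 1.47 ± 0.32 (SE) on the log2 scale in CL (adjusted p = 0.00646) and rose by 1.09 ± 0.32 in PC (SE, adjusted p = 0.0203) by the edgeR quasi-likelihood test. Its CL call was lost without CL day 3 replicate 2 (adjusted p up to 0.0527), and its PC call was lost without PC day 0 replicate 2, PC day 3 replicate 1 or PC day 3 replicate 2 (adjusted p up to 0.117) and in a fit of those groups alone (0.0751). LOC111892232 had 711 and 710.3 CPM on day 3 against 974 and 1059 CPM on day 0 in CL and 600.4 and 655 CPM on day 3 against 479.7 and 426 CPM on day 0 in PC. Both changes were small, -0.52 ± 0.17 in CL (SE, adjusted p = 0.0381) and 0.47 ± 0.17 in PC (SE, adjusted p = 0.0457) on the log2 scale (edgeR quasi-likelihood test). The CL call was lost without any one of its 4 libraries (adjusted p up to 0.169), the PC call was lost without PC day 0 replicate 2, PC day 3 replicate 1 or PC day 3 replicate 2 (adjusted p up to 0.238), and without a scaling factor or without the filter on low counts neither passed. The PC call also failed with RLE factors (adjusted p = 0.0574), with the replicate block (0.0577) and in a fit of those groups alone (0.115). LOC111914201 went the other way, with 1329 and 1055 CPM on day 3 against 546 and 596 CPM on day 0 in CL and 721 and 752 CPM on day 3 against 1447 and 2250.4 CPM on day 0 in PC. Its log2 fold changes were 1.06 ± 0.26 in CL (SE, adjusted p = 0.0105) and -1.33 ± 0.26 in PC (SE, adjusted p = 0.00262) by the edgeR quasi-likelihood test, and the CL call was lost without CL day 0 replicate 1 or CL day 3 replicate 1 (adjusted p up to 0.085). In the heat map of all members, LOC111903698 is the line that is deep red in CL and TG on day 0 and deep blue in PC on day 0.

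**Figure D4:**
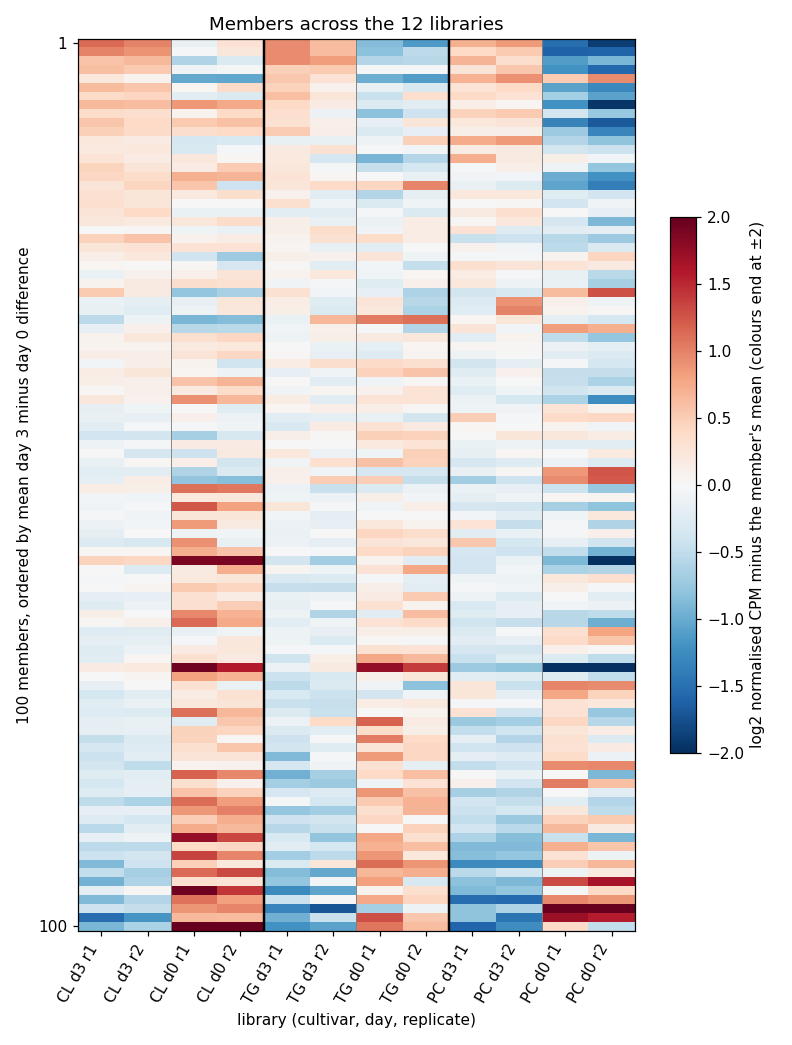
Log2 normalised CPM of the 100 members (one line each, ordered by the mean day 3 minus day 0 difference) in the 12 libraries, as the difference from the member's own mean, with red above and blue below it and colours ending at ±2. Columns run CL, TG, PC with day 3 left of day 0, and the deepest colours lie in the day 0 columns. On day 0, 40 members differed at least 2-fold between the highest and lowest cultivar mean, against 4 on day 3. Of the 17463 tested genes with a count in every library, 9507 did so on day 0 and 2957 on day 3. Among the next 100 genes by score 40 did so on day 0 and 1 on day 3.

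The comparison of TG with PC sets the high-browning parent against the low-browning one. On day 0, 45 members passed, 32 higher and 13 lower in TG, where 30.4% of all genes passed, 17.2% higher and 13.1% lower. The median log2 fold change was 0.33 over the members and 0.00 over the 21757 genes tested, and the median absolute value was 0.54 and 0.73. Without a scaling factor the median of all genes moved to -0.19 and the split to 23 higher and 17 lower. The largest difference was in LOC111903698, with 14578 and 11393 CPM in TG against 1070.1 and 368 CPM in PC. It was 18.1-fold higher in TG, and the log2 fold change was 4.18 ± 0.46 (SE, adjusted p = 0.000198) by the edgeR quasi-likelihood test. Without PC day 0 replicate 1 it was 5.13. LOC111890969 had 2955 and 4349 CPM in TG against 1058 and 841 CPM in PC, and LOC111891105 had 1203 and 1596 CPM in TG against 539 and 424 CPM in PC. Neither overlapped, with log2 fold changes of 1.94 ± 0.32 (SE, adjusted p = 0.00168) and 1.54 ± 0.21 (SE, adjusted p = 0.000658) by the edgeR quasi-likelihood test.

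Of the members lower in TG on day 0, LOC111885899 had the largest difference, with 1659.6 and 2448 CPM in TG against 12313 and 10589 CPM in PC, and the log2 fold change was -2.48 ± 0.25 (SE, adjusted p = 0.000157) by the edgeR quasi-likelihood test. LOC111912961 had 1401 and 1278 CPM in TG against 3931 and 5323 CPM in PC, and the log2 fold change was -1.79 ± 0.22 (SE, adjusted p = 0.00036). LOC111880334 had 804 and 799 CPM in TG against 1834 and 2406 CPM in PC, and -1.40 ± 0.20 (SE, adjusted p = 0.000825) on the same scale. None of the 3 overlapped between the cultivars, and all 3 calls held without any one library. Over the members, 26 of the 45 calls did so, and 9 members passed in a fit of TG and PC on day 0 alone.

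On day 3, 2 members passed, both higher in TG, where 1.45% of all genes passed. At an unadjusted p of 0.05, 15 members were called, and DESeq2 with its own adjustment called 8. The shares of all genes at these settings are not given here, so these counts cannot be read against the 1.45%. Without a scaling factor 2 passed as higher and 1 as lower. LOC111881471 had 1177 and 1598 CPM in TG against 553 and 540.3 CPM in PC, and the log2 fold change was 1.34 ± 0.23 (SE, adjusted p = 0.0149) by the edgeR quasi-likelihood test. LOC111895182 had 1568 and 2245 CPM in TG against 789 and 799 CPM in PC, and the log2 fold change was 1.26 ± 0.24 (SE, adjusted p = 0.0324) by the edgeR quasi-likelihood test. Both belong to the group that fell in storage in all cultivars, and on day 3 their TG libraries lay above the PC libraries without overlap. Each call was lost without TG day 3 replicate 2, PC day 3 replicate 1 or PC day 3 replicate 2, with adjusted p up to 0.178 for LOC111881471 and 0.286 for LOC111895182. With the replicate number as a block LOC111895182 did not pass (adjusted p = 0.0558).

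The members stood closer together across cultivars on day 3 than on day 0, as genes in general did. The ratio of the highest to the lowest of the 3 cultivar means had a median of 1.29 on day 3 and 1.79 on day 0, and it was smaller on day 3 for 86 of the 100 members. Over all 17463 tested genes with a count in every library the medians were 1.34 on day 3 and 2.15 on day 0. Of these genes 14888 had a smaller ratio on day 3, and 89 of the next 100 genes by score did. The absolute difference between TG and PC was smaller on day 3 for 78 members, against 71.1% of all genes tested. Replicates were also closer on day 3 in each cultivar, as given above, and the part of this in the narrower spread of means was not tested.

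Whether TG and PC changed differently in storage was tested directly, as the storage change in TG minus that in PC. For this difference 15 members passed, 7 positive and 8 negative, where 12.2% of all genes passed, 4.76% positive and 7.43% negative. The median difference on the log2 scale was -0.32 over the members and -0.04 over the 21757 genes tested, and the median absolute value was 0.51 and 0.78. Without a scaling factor the median of all genes moved to 0.11, and 8 members were positive and 7 negative. LOC111903698 had the largest, with a difference of -3.37 ± 0.58 (SE, adjusted p = 0.00696) by the edgeR quasi-likelihood test, from its opposite changes given above, and it was -4.32 without PC day 0 replicate 1. LOC111909588 had 646 and 647 CPM on day 3 and 667 and 991 CPM on day 0 in TG, against 1198 and 1292 CPM on day 3 and 475 and 409 CPM on day 0 in PC. It rose in PC, with log2 fold change 1.49 ± 0.21 (SE, adjusted p = 0.000426), and did not pass in TG, with -0.36 ± 0.20 (SE, adjusted p = 0.218). The difference was -1.85 ± 0.29 (SE, adjusted p = 0.00472) by the edgeR quasi-likelihood test, and its call held without any one library. LOC111881712 had 461 and 563 CPM on day 3 and 1174 and 1352 CPM on day 0 in TG, against 891 and 811 CPM on day 3 and 892 and 479.7 CPM on day 0 in PC, a difference of -1.61 ± 0.38 (SE, adjusted p = 0.0229) that was lost without TG day 0 replicate 2, TG day 3 replicate 1, PC day 3 replicate 1 or PC day 3 replicate 2 (adjusted p up to 0.0854) and in a fit of TG and PC alone (0.0553).

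Among the positive differences, LOC111890968 had 1236 and 1634 CPM on day 3 and 1629 and 830.5 CPM on day 0 in TG, against 712 and 868 CPM on day 3 and 2231 and 2707 CPM on day 0 in PC. The difference was 1.87 ± 0.43 (SE, adjusted p = 0.0214) by the edgeR quasi-likelihood test, and the call was lost without TG day 3 replicate 2, PC day 0 replicate 2, PC day 3 replicate 1 or PC day 3 replicate 2 (adjusted p up to 0.0954) and in a fit of TG and PC alone (0.0538). LOC111914201, which fell in PC, had 1142 and 899.6 CPM on day 3 and 825 and 609 CPM on day 0 in TG, and its PC values are given above. Its difference was 1.84 ± 0.36 (SE, adjusted p = 0.0113) by the edgeR quasi-likelihood test, with the call lost without PC day 3 replicate 1 (adjusted p up to 0.0545). LOC111885899 fell in both parents and by more in PC, a difference of 1.68 ± 0.34 (SE, adjusted p = 0.0124) by the edgeR quasi-likelihood test, with the call lost without PC day 3 replicate 1 (adjusted p up to 0.0618). Of the 15 calls, 4 held without any one library, and 8 members passed in a fit of TG and PC alone. Leaving out TG day 3 replicate 1 or PC day 3 replicate 2 gave 8, leaving out PC day 3 replicate 1 gave 6, and leaving out PC day 0 replicate 1 gave 28.

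CL was set against each parent as the mean of its day 3 and day 0 values. Against PC, 48 members passed, 38 higher and 10 lower in CL, where 36.7% of all genes passed, 19.1% higher and 17.6% lower. The median log2 fold change was 0.25 over the members and -0.03 over the 21757 genes tested, and the median absolute value was 0.41 and 0.59. The direction of the split depended on the scaling: without a scaling factor the median of all genes moved to -0.36, and 22 members passed as higher and 25 as lower. The count was 31 without CL day 3 replicate 1. Against TG, 19 members passed, 16 higher and 3 lower in CL, where 18.2% of all genes passed, 8.76% higher and 9.41% lower. Against TG the median log2 fold change was 0.12 over the members and -0.04 over the 21757 genes tested, and the median absolute value was 0.26 and 0.43. Here too the split turned over without a scaling factor, to 6 higher and 12 lower, with a median of -0.24 over all genes. Against TG, leaving out TG day 3 replicate 2 or CL day 3 replicate 2 gave 8, leaving out CL day 0 replicate 1 gave 10, and leaving out CL day 3 replicate 1 gave 7. The CL libraries of day 0 had the lowest scaling factors of all, as given above, so the general position of the members in CL is not fixed by these data. On TMM-adjusted sizes the CL mean on day 0 stood above both parents for 53 members, between them for 30 and below both for 17. On library totals these numbers were 31, 22 and 47.

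The members named next kept their direction and their call under both scalings. LOC111903698 had 4831 and 4935 CPM on day 3 and 16665 and 12984 CPM on day 0 in CL, against 2598 and 2461 CPM on day 3 and 1070.1 and 368 CPM on day 0 in PC. It was 6.31-fold higher in CL over the days (adjusted p = 0.000183, edgeR quasi-likelihood test), and the cultivars were farther apart on day 0. LOC111909425 had 3571 and 3499 CPM on day 3 and 9722 and 9796 CPM on day 0 in CL, against 2011 and 2384 CPM on day 3 and 1406 and 654 CPM on day 0 in PC, and in TG it had 2031 and 1619 CPM on day 3 and 2762 and 2249.9 CPM on day 0. It was above both parents on both days, with log2 fold changes of 1.96 ± 0.23 against PC (SE, adjusted p = 0.000214) and 1.46 ± 0.23 against TG (SE, adjusted p = 0.00266) by the edgeR quasi-likelihood test. LOC111877125, with the values given above, had log2 fold change 1.58 ± 0.21 against PC (SE, adjusted p = 0.000416). LOC111906885 had 1943 and 2234 CPM on day 3 and 8404 and 5913 CPM on day 0 in CL, against 903 and 1058 CPM on day 3 and 2297 and 2738 CPM on day 0 in TG, and the log2 fold change was 1.30 ± 0.17 (SE, adjusted p = 0.00125) by the edgeR quasi-likelihood test. LOC111885899 was also higher in CL than in TG, at 1.17 ± 0.17 (SE, adjusted p = 0.00192), although on day 0 it was highest in PC.

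Lower in CL than in PC were LOC111912961, at -1.22 ± 0.15 (SE, adjusted p = 0.000294), LOC111880334, at -0.83 ± 0.14 (SE, adjusted p = 0.00143), and LOC111884674, at -0.73 ± 0.16 (SE, adjusted p = 0.00673) on the log2 scale (edgeR quasi-likelihood test). LOC111884674 had 2014 and 2414 CPM on day 3 and 1529.6 and 1547 CPM on day 0 in CL, against 2698 and 2165 CPM on day 3 and 3994 and 3672 CPM on day 0 in PC. Its groups were apart on day 0 and close on day 3, and so were those of LOC111880334. In CL, LOC111880334 had 871 and 869 CPM on day 3 and 663 and 827 CPM on day 0. In PC it had 916 and 1027 CPM on day 3 and 1834 and 2406 CPM on day 0. Against TG, the 3 members lower in CL were LOC111920705, LOC111913509 and LOC111895182. LOC111920705 had 1162 and 1547 CPM on day 3 and 884 and 914 CPM on day 0 in CL, against 1529.9 and 2631 CPM on day 3 and 3424 and 3565 CPM on day 0 in TG, and the log2 fold change was -1.29 ± 0.19 (SE, adjusted p = 0.00183). LOC111913509 had 742 and 753 CPM on day 3 and 614 and 780.0 CPM on day 0 in CL, against 1054 and 989 CPM on day 3 and 1348 and 1340.0 CPM on day 0 in TG, and the log2 fold change was -0.70 ± 0.13 (SE, adjusted p = 0.0058) by the edgeR quasi-likelihood test. The CL libraries of both genes lay below the TG libraries on day 0, and on day 3 those of LOC111913509 did while those of LOC111920705 overlapped. LOC111895182 was at -0.63 ± 0.17 (SE, adjusted p = 0.0295), a call lost without TG day 0 replicate 1, TG day 3 replicate 2, CL day 0 replicate 2 or CL day 3 replicate 1 (adjusted p up to 0.135).

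**Figure D5:**
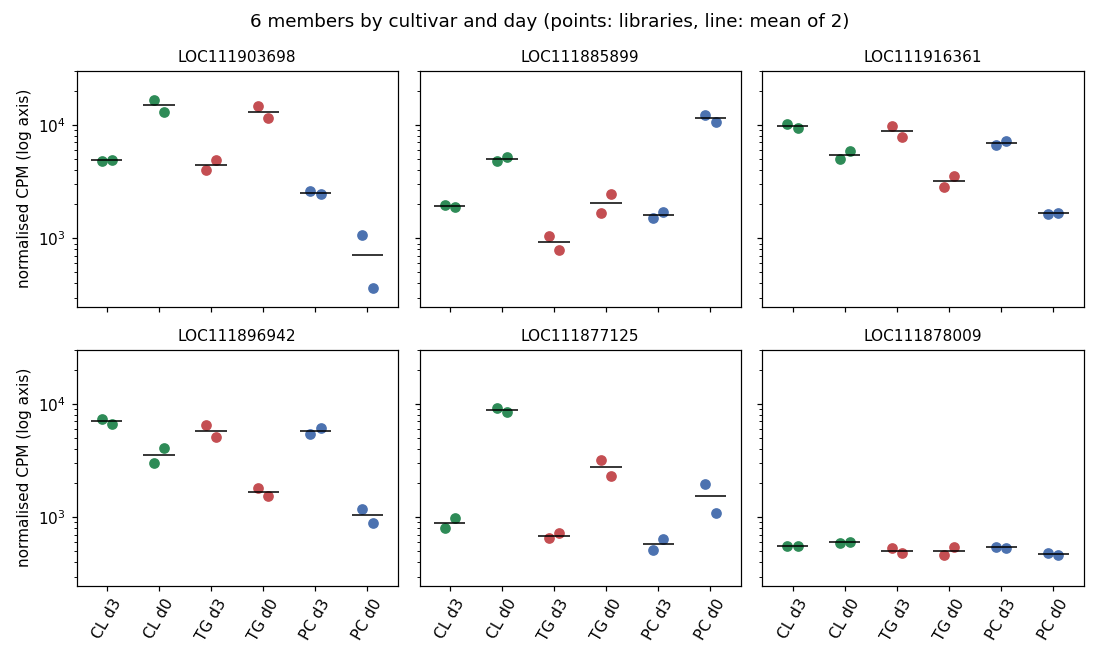
Normalised CPM (log axis) of 6 members in the libraries of each group (points, coloured by cultivar, with the mean of 2 as a line), ordered CL, TG, PC with day 3 left of day 0. LOC111903698 falls in CL and TG and rises in PC, LOC111885899 and LOC111877125 fall and LOC111916361 and LOC111896942 rise in all cultivars, and LOC111878009 stays between 462 and 611 CPM.

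The 3 members that are not protein coding, named here for their biotype, include a pair of rRNA biotype. Ribosomal RNA is the structural RNA of the ribosome and makes up most RNA of a cell, so its read share in such libraries also depends on how a library was prepared. The files hold 37 GeneIDs of this biotype, 6 of them with a count. LOC111918870 had 3539.9 and 3342 CPM on day 3 and 3690.1 and 4619.6 CPM on day 0 in CL, 4280.0 and 3225 CPM on day 3 and 4581 and 2529 CPM on day 0 in TG, and 3337 and 7874 CPM on day 3 and 4125 and 3995 CPM on day 0 in PC. LOC111918869 had 1866 and 1801 CPM on day 3 and 1838 and 2433 CPM on day 0 in CL, 2267 and 1731 CPM on day 3 and 2439.7 and 1388 CPM on day 0 in TG, and 1699 and 3839 CPM on day 3 and 2204 and 1914 CPM on day 0 in PC. Both were highest in PC day 3 replicate 2 and moved together over the 12 libraries. As a description, r was 0.99 for log2 CPM on library totals. They have 1 gene between them in the name table, and since rRNA genes come in near-identical copies, how reads were shared among them is uncertain. Neither passed in any of the 8 comparisons, the lowest adjusted p being 0.371 for LOC111918870 and 0.403 for LOC111918869 (edgeR quasi-likelihood test).

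LOC111899827, the member of lncRNA biotype, had 632 and 739 CPM on day 3 and 861 and 512 CPM on day 0 in TG, against 1070.0 and 667 CPM on day 3 and 1789 and 1739 CPM on day 0 in PC. In CL it had 807 and 909 CPM on day 3 and 1119 and 830.2 CPM on day 0. PC stood above TG on day 0 without overlap, and the log2 fold change of TG over PC was -1.36 ± 0.30 (SE, adjusted p = 0.00717) by the edgeR quasi-likelihood test, but did not pass in a fit of those groups alone (0.0533). It fell in PC, with log2 fold change -1.02 ± 0.30 (SE, adjusted p = 0.0197), a call lost without PC day 0 replicate 2 or PC day 3 replicate 2 (adjusted p up to 0.145). In TG and CL it did not pass, and its day 3 and day 0 libraries overlapped. LOC111883376, with the further name GS(1), had 872 and 881 CPM on day 3 against 615 and 744 CPM on day 0 in CL, and 862 and 941 CPM on day 3 against 741 and 736 CPM on day 0 in TG. Its PC libraries had 846 and 859 CPM on day 3 against 593 and 562 CPM on day 0. It passed in PC alone, at 0.56 ± 0.17 (SE, adjusted p = 0.0213) by the edgeR quasi-likelihood test, against 0.29 ± 0.17 (SE) in TG and 0.37 ± 0.17 (SE) in CL, so that the value was positive in all 3 cultivars. The PC call was lost without PC day 0 replicate 2, PC day 3 replicate 1 or PC day 3 replicate 2 (adjusted p up to 0.109) and in a fit of those groups alone (adjusted p = 0.0663).

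In none of the 8 comparisons did 21 members pass, where 31.5% of all genes tested passed in none. They include 3 of the 10 highest scores, LOC111918870, LOC111890922 and LOC111900815, and the evenest member on library totals, LOC111878009. The ratio of highest to lowest CPM on library totals ran from 1.30 to 3.49 among them, so failing to pass did not always go with an even level, and the widest belongs to LOC111918870. The member with the highest score, LOC111899860, had 5073 and 4874 CPM on day 3 and 4709 and 5266 CPM on day 0 in CL, against 4390.1 and 3583 CPM on day 3 and 2762 and 3624 CPM on day 0 in TG. It passed in CL against TG alone, at 0.48 ± 0.15 (SE, adjusted p = 0.0484) by the edgeR quasi-likelihood test, and failed there without a scaling factor (adjusted p = 0.176), without the filter on low counts (0.0575), with the replicate block (0.0657), in a fit of those groups alone (0.055) and without any of 7 of the 8 libraries compared (up to 0.157). LOC111904524, the second evenest on library totals, passed in CL against PC alone, at 0.39 ± 0.13 (SE, adjusted p = 0.0436) by the edgeR quasi-likelihood test. It failed there without a scaling factor (adjusted p = 0.805), without the filter (0.0692) and with the replicate block (0.0557). It also failed without any of 7 of the 8 libraries.

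Besides the rRNA pair, 3 pairs of members had 13 or fewer genes between them on a chromosome of the name table and were singled out for this position after their values were seen. LOC111916349 and LOC111916361 had 13 genes between them and r = -0.62 over the 12 libraries. LOC111892473 and LOC111892512 had 10 genes between them and r = -0.50, and LOC111902830 and LOC111902836 also had 10 and r = -0.10. Each r was computed from log2 CPM on library totals and is a description over libraries that share cultivar and day.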

How the data were processed

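RNA from lettuce midribs was sequenced in 18 samples with read pairs (Illumina HiSeq3000), per the labels' protocols. The authors deposited 1 table per sample with whole-number counts per NCBI GeneID on 64021 lines. The submitters' processing notes name STAR 2.4.0i and featureCounts, DESeq2 with R 3.6.1, and Trim Galore with FastQC, but give them no role. A strand setting, an annotation or a genome build was not given in the sources used here. The 6 day 2 columns that the authors deposited were treated as a score, not as counts, since 98.9% to 99.8% of their lines with 200 or more counts on days 0 and 3 together lay within 1.5 of a factor, 0.990 to 1.05, times the mean of those days plus a constant. They were not used.

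Lines of 1 GeneID were summed, which touched 7574 GeneIDs and no member. Names and biotypes come from the RefSeq table of assembly Lsat_Salinas_v11, which matched 40695 GeneIDs. Its coordinates were used only to order the genes of a chromosome and count those between members. The members, the comparisons and the rule for naming genes were chosen with earlier results of these data known. Named are the 10 highest scores, 3 genes on each side of the list's end, for each comparison the 3 largest called log2 fold changes in each direction, the 5 most and 5 least even members, and genes singled out in the text by biotype, name, position or storage pattern after their values were seen. Groups by product name and cell type markers could not be applied, as no product names were used here.

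Counts were tested in edgeR 4.0.16 under R 4.3.3: filterByExpr by group (21757 genes, all 100 members among them), TMM factors, a robust quasi-likelihood model with 6 group means over 12 libraries, contrasts by F-test, and Benjamini-Hochberg adjustment over all genes at 0.05. An SE is the log2 fold change over the square root of F. Tables were made with Python 3.11.15, pandas 2.3.3 and matplotlib 3.10.9. Alternatives were RLE factors, no scaling factor, factors without the members, no filter, a replicate block, the highest line per GeneID, only the groups compared, DESeq2 1.42.0, and each library left out.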

Additional observations from a re-analysis of the deposited data

Results flagged for a closer look

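The storage change in TG differed from that in PC for 15 of the 100 members by the test of the difference itself (edgeR quasi-likelihood test, adjusted p under 0.05), where 12.2% of all genes passed. On the log2 scale, as the change in TG minus that in PC, the negative differences were LOC111903698 at -3.37, LOC111909588 at -1.85, LOC111881712 at -1.61, LOC111891105 at -1.57, LOC111909425 at -1.55, LOC111910454 at -1.25, LOC111902198 at -1.14 and LOC111891693 at -1.04. The positive differences were LOC111890968 at 1.87, LOC111914201 at 1.84, LOC111885899 at 1.68, LOC111881471 at 1.66, LOC111880334 at 1.47, LOC111912961 at 1.41 and LOC111921260 at 1.12. LOC111891105, LOC111903698, LOC111909588 and LOC111881471 kept the call without any one of the 8 libraries compared. LOC111909425 lost it without any of 7 of them and LOC111921260 without any of 6. The 4 libraries of PC and TG on day 0 also stood apart in scaling, with factors of 0.977 and 0.990 in TG and 1.12 and 1.17 in PC, and the part of this in the differences was not tested.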

How the results depend on the processing

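No called difference of a member changed its direction under any alternative run. Of the 239 calls of members over the 8 comparisons, all 239 held with DESeq2, with the highest line per GeneID and with scaling factors computed without the members, 235 with RLE factors, 219 without the filter, 219 with the replicate block, 188 without a scaling factor and 165 in fits of only the groups compared. In those fits the number of members called was 15 for storage in TG, 9 for TG against PC on day 0 and 8 for the difference between the TG and PC storage changes. DESeq2 called 8 for TG against PC on day 3, 36 for CL against TG over days and 34 for the difference in storage change. The shares of all genes that DESeq2 called are not given here, so these counts cannot be read against the shares of the edgeR fit. Leaving out 1 library at a time, the counts ran from 17 to 29 for storage in CL, 13 to 26 in TG and 29 to 46 in PC, 32 to 44 for TG against PC on day 0 and 0 to 2 on day 3, 31 to 47 for CL against PC, 7 to 18 for CL against TG, and 6 to 28 for the difference in storage change. The number of members that fell in all cultivars ran from 5 to 16 over all alternatives, of those that rose in all from 1 to 5, of those with opposite calls from 2 to 9 and of those never called from 13 to 30. On TMM-adjusted sizes the members' share was 20.5% in CL on day 0, 14.3% in TG on day 3, 13.9% in PC on day 3 and 15.0% in PC on day 0. With 1 library at a time left out of the score it was 15.2% to 15.6% in CL on day 3 and 16.1% to 16.8% on day 0, 15.0% to 15.3% in TG on day 3 and 16.4% to 16.7% on day 0, and 15.2% to 15.4% in PC on day 3 and 16.7% to 17.2% on day 0. Replicate numbers did not pair the libraries: over all genes, deviations of same-numbered libraries from their group means correlated at -0.086 to 0.067. With the number as a block, 1 member passed for TG against PC on day 3. The causes of these dependences were not tested. The members' replicates differed by more than counting error, as given above, and what limits the calls was not tested.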
